A study of Mus musculus with 4 samples.

Results

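The response of miR-7 deficient macrophages to LPS was read from 2 of the 4 libraries of the series, 1 from unstimulated cells and 1 from cells given LPS at 100 ng/mL for 12 h. A gene was taken into the comparison when it had 10 or more counts in either library, which held for 15760 of 52550 gene IDs. The cells were bone marrow-derived macrophages, phagocytes grown in culture from marrow progenitors, from C57BL/6 mice aged 8 to 10 weeks, and both libraries came from mice labelled as having miR-7 deficiency. A wild-type pair with the same strain, age, dose and time was used for comparison, again with 1 library a side. How the deficiency was made, which of the miR-7 genes it touches, the sex of the mice and how many mice gave each library were not stated in the labels. With 1 library a side there was no replicate, so the values describe these libraries.

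LPS is a lipid of the outer membrane of Gram-negative bacteria. It binds CD14 and the TLR4-MD-2 receptor complex, which signals through the adaptor MyD88 to NF-kB and MAP kinases and through the adaptor TRIF to IRF3 and interferon beta, and the interferon then acts back on the same cells through STAT proteins and IRF9. In macrophages this is known to raise cytokines, chemokines, antiviral proteins and microbicidal enzymes, while division and parts of lipid metabolism are lowered. miR-7 is a microRNA, a short RNA that pairs through its seed, bases 2 to 8, with messenger RNAs and lowers their output.

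The mature miR-7 sequences are shown because they name what the cells are labelled as lacking. They are from RefSeq on GRCm38.p6, written 5′ to 3′ with the seed in capitals.

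mmu-miR-7a-5p: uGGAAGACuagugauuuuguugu

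mmu-miR-7b-5p: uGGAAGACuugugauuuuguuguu

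The seed is the same in both, and the 2 forms differ by 1 substitution over the first 23 bases, A10U, counted from the 5′ end of miR-7a-5p. miR-7a-5p comes from Mir7-1, on the minus strand at chr13:58392841-58392863, and from Mir7-2, on the plus strand at chr7:78888295-78888317, and miR-7b-5p comes from Mir7b, on the plus strand at chr17:56243017-56243040. The libraries were made from polyadenylated RNA, so they do not measure the mature microRNA, and the deficiency could not be checked in them. The precursor entry Mir7-1 had 7 counts in each library of the pair, below the minimum, and Mir7-2 and Mir7b had 0 counts in both. Hnrnpk†, an RNA-binding protein gene, stood at 229 CPM unstimulated and 181 CPM with LPS (log2 ratio -0.34). Oip5os1, a long noncoding RNA known to direct the decay of miR-7, was lower with LPS, from 108 to 41.7 CPM. A dagger after a gene symbol marks a gene that shares exonic bases with another annotated gene, so that its count is uncertain, as held for 6288 of the 15760 genes.

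Levels are given as CPM, which are counts scaled to a fixed library total, after TMM scaling, a correction of library totals by edgeR. Totals were 33937823 counts unstimulated and 42074624 with LPS. Ratios are the LPS level over the unstimulated level on the log2 scale with a 95% Clopper-Pearson interval, which covers counting error only. Low counts came in steps in all 4 libraries. In the unstimulated deficient library 340 gene IDs had a count of 3, 721 a count of 4, 177 a count of 7, 363 a count of 8, 132 a count of 11 and 202 a count of 12. Of the IDs with 4 to 43 counts in a library, between 38.1% and 40.5% held a multiple of 4. The cause of the steps was not tested. The intervals take each count as a separate event and would be too narrow if counts arose in groups, so the calls were repeated with all counts divided by 4. A count of 0 was taken to allow up to 12 counts in that library (3 steps of 4), which is 0.305 CPM unstimulated and 0.317 CPM with LPS, and a fold against 0 counts is a lower bound against that floor.

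**Figure D1:**
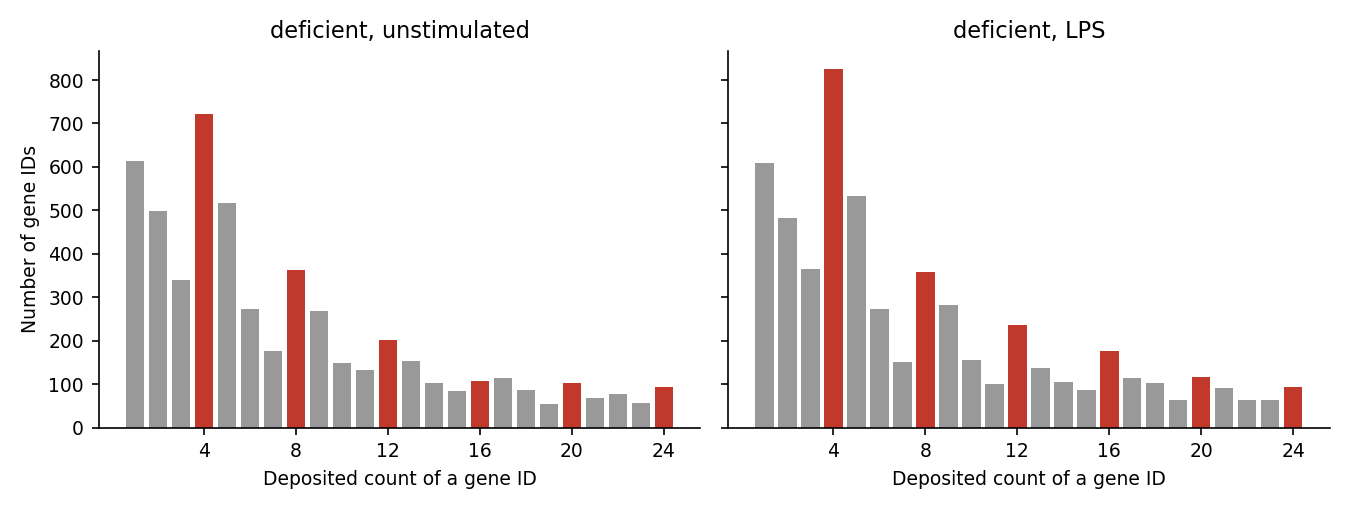
Number of gene IDs (vertical axis) at each deposited count from 1 to 24 (horizontal axis) in the unstimulated (left) and LPS (right) libraries of miR-7 deficient macrophages; multiples of 4 are red. The bars at 4, 8 and 12 stand above their lower neighbours at 3, 7 and 11 in both libraries.

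The cell label was checked against marker genes. All 12 macrophage markers were above the count minimum, among them Csf1r†, the receptor for the growth factor of these cells, at 2346 to 1339 CPM, Adgre1, which encodes F4/80, at 386 to 893 CPM and the lineage factor Spi1 at 341 to 355 CPM. The summed level of the list went from 23688 to 15589 CPM, with Lyz2 at 18559 to 10206 CPM. Some genes of the lists for T cells (Cd3d, Trac), B cells (Cd79a, Cd79b), natural killer cells (Ncr1, Prf1), neutrophils (Ly6g, Elane) and red cells (Hba-a1, Klf1) had 0 counts in both libraries. The summed levels of those lists went from 8.5 to 4.97, from 91.3 to 20.4, from 1.17 to 19.1 and from 768 to 213 CPM for the first 4, with 3 of 13, 3 of 9, 2 of 7 and 6 of 11 genes above the minimum, and 0 of 8 for red cells. The neutrophil sum was mostly Mmp8 and the B cell sum mostly Cd22†. Of the 2 natural killer cell genes above the minimum, 1 was higher with LPS, with a log2 ratio of 4.75, and 1 lower. Of 9 dendritic cell markers 7 were above the minimum, with a summed level of 45.3 CPM unstimulated and 328 CPM with LPS, most of the latter from Ccr7, and Flt3 was at 0 counts in both. Markers of endothelial cells went from 36.3 to 253 CPM in sum with 4 of 7 above the minimum, and those of fibroblasts from 5.83 to 20.9 CPM with 8 of 10. Eosinophil markers went from 80 to 11.3 CPM with 2 of 5 and megakaryocyte markers from 423 to 196 CPM with 4 of 6. Epithelial markers went from 9.74 to 0.634 CPM with 1 of 6. Mast cell and basophil markers went from 4.99 to 3.2 CPM with 2 of 8, and osteoclast markers from 501 to 519 CPM with 6 of 7. The part of these cell types in the LPS response was not tested. In bulk RNA fewer cells of a type and less RNA per cell cannot be told apart.

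The first question was how far the transcriptome moved with LPS. A gene is called higher or lower here when its whole interval lay beyond 2-fold. Of 15760 genes, 2125 were higher (13.5%) and 2027 lower (12.9%). With counts divided by 4 the calls came to 1433 higher and 1155 lower, all among those just given. Scaling by total counts gave 1624 higher and 3009 lower, or 35.1% of calls in the higher direction against 51.2% with TMM, and moved the median log2 ratio of all genes from -0.06 to -0.43. In the LPS library 35.6% of counts lay in genes called higher, against 8.43% in the unstimulated library, and genes called lower took 3.1% against 12.4%. By the same interval, 296 genes were higher and 78 lower beyond 16-fold. At the count minimum, 181 genes had a highest count of 10, just inside, and 346 had 9, just outside.

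A test needs more than 1 library a side, so an LPS term was fitted by edgeR's quasi-likelihood test to all 4 libraries with genotype as the other term, which leaves 1 residual degree of freedom and treats a difference between the genotypes' responses as spread. At an adjusted p under 0.05, 2210 of 15760 genes rose (14%) and 1951 fell (12.4%). Rose and fell are kept for genes past that test. Of the 2125 genes higher in the deficient pair 1550 rose, and of the 2027 lower 1278 fell, while 575 and 749 did not pass. The counts rest on each library. A model of LPS alone gave 2060 and 1806 with all 4 libraries. In that model, without the wild-type unstimulated library 906 rose and 518 fell, without the wild-type LPS library 1330 and 1146, without the deficient unstimulated library 1072 and 694, and without the deficient LPS library 1633 and 1365. Where nothing says that libraries came from separate mice, such a test measures only the spread between these libraries. It shares the deficient pair with the ratios and is no separate support for them.

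**Figure D2:**
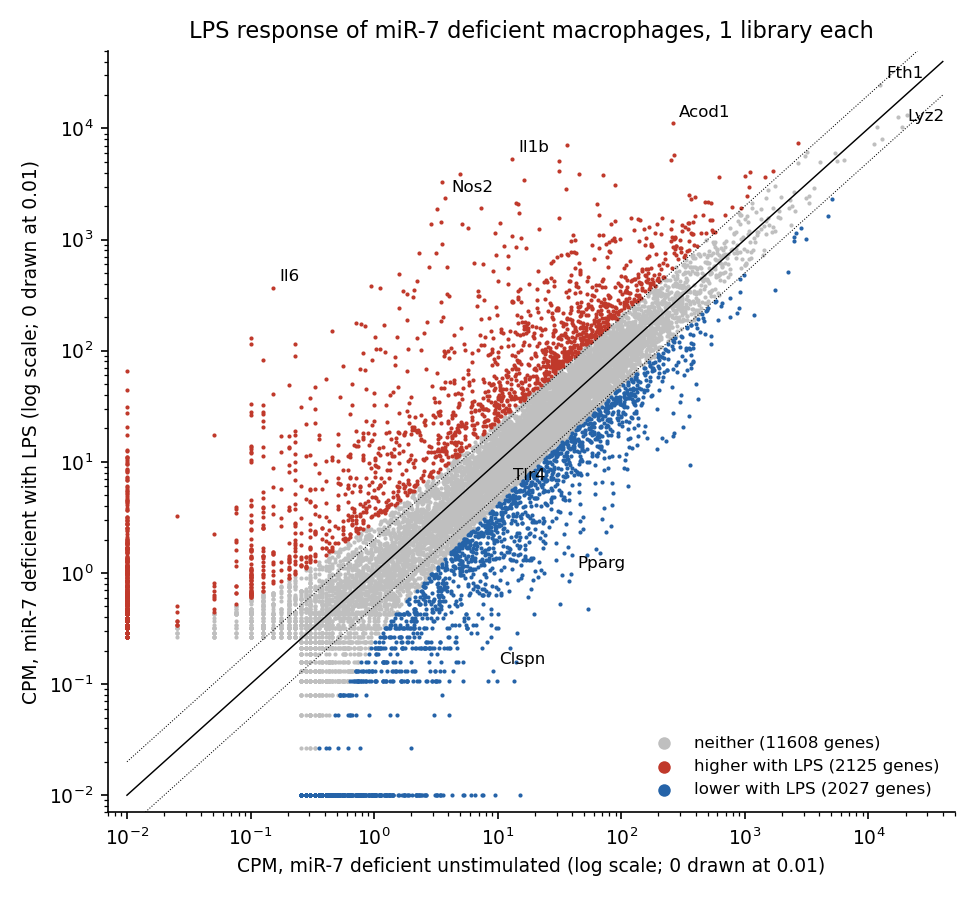
CPM with LPS (vertical axis) against CPM unstimulated (horizontal axis) in miR-7 deficient macrophages for 15760 genes, 1 library each, on log axes with 0 drawn at 0.01; the solid line marks equal levels and the dotted lines 2-fold. Red points (2125) are higher and blue points (2027) lower with LPS by the whole counting interval, and Il6 and Nos2 lie farthest above the line among the labelled genes.

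The genes with the highest ratios, ranked by the interval bound nearest 0 among genes with at least 10 CPM in a library, were Il6, Il12b, Il12a, Ccl5, Cxcl10†, Nos2, Ptgs2, Hdc, Apol9b and Ereg†. Provisional gene names and pseudogenes were left out of the ranking, and 0 of them lay above the tenth gene. Il6, a fever-inducing cytokine, had 6 counts unstimulated and 14008 with LPS, from 0.153 to 370.2 CPM (log2 ratio 11.24, interval 10.12 to 12.69). Both subunits of interleukin 12, which directs T helper 1 responses, were among the 10. Il12b went from 3.56 to 3295 CPM (925-fold), and Il12a from 4 to 4365 counts (log2 10.15, 8.79 to 12.02). The chemokines Ccl5 and Cxcl10†, which draw T cells, went from 4.94 to 3874 CPM (785-fold) and from 2.9 to 1372 CPM (473-fold). Nos2, the inducible nitric oxide synthase, went from 3.77 to 2369 CPM (629-fold), and Ptgs2, the inducible cyclooxygenase COX-2, from 3.23 to 1877 CPM (581-fold). Hdc, which makes histamine, had 4 counts unstimulated, about 1 step, and 4881 with LPS, or 129 CPM (log2 10.31, 8.95 to 12.18). Apol9b, an interferon-inducible apolipoprotein L gene, and Ereg†, the growth factor epiregulin, had 0 counts unstimulated and reached 65.6 and 43.9 CPM, at least 215-fold and 144-fold higher. Their rank rests on taking the 0 as it was counted, since against the floor of 12 counts their log2 ratios are 7.75 and 7.17, below the bound of 8.56 for Il1b†, which is not among the 10. All 10 rose in the 4-library test, with adjusted p in edgeR from 0.000435 for Ereg to 0.00436 for Apol9b.

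Promoters of 4 of these genes are shown for the motifs they hold. Each run is the 250 bases before the RefSeq start on GRCm38.p6, 5′ to 3′ on the gene's strand. Capitals mark every match, on either strand, to the letters GGANTTTCC (NF-kB), GAAANNGAA (the interferon response element, ISRE), TGANTCA (AP-1), TTTCCCGC (E2F), TTTGAA (the cell-cycle element CHR), CCAAT or CACGTG (E-box). The 4 are the ones among the 10 genes above whose promoter is in the table and holds a match. Il12b, Ptgs2 and Il12a hold none of the letters in this window. Il6 lies at chr5:30012864-30013113 (plus strand), Apol9b at chr15:77728822-77729071 (plus), Hdc at chr2:126618679-126618928 (minus) and Cxcl10† at chr5:92348890-92349139 (minus).

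Il6: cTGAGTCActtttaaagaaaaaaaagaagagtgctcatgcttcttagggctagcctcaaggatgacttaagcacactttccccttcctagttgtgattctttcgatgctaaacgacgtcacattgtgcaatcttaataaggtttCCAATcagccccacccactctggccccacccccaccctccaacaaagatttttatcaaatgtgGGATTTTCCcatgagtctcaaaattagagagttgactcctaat

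Apol9b: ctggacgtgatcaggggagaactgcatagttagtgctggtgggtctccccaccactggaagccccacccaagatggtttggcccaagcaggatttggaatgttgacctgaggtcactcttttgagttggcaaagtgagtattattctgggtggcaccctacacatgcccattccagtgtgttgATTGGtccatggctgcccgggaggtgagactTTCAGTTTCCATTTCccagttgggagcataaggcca

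Hdc: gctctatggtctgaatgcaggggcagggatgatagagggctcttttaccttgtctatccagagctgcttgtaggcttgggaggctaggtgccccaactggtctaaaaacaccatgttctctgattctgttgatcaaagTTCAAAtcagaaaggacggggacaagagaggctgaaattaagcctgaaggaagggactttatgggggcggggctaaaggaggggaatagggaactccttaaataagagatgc

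Cxcl10: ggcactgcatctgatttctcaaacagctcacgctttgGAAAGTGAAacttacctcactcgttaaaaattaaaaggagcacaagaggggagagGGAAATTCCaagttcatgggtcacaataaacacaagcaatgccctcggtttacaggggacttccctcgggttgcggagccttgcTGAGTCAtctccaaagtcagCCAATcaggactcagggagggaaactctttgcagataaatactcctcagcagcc

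The Il6 run holds the NF-kB letters beginning 43 bases before the start, CCAAT at 106 and the AP-1 letters at 249. Apol9b holds 2 overlapping matches to the ISRE letters, beginning at 36 and 30 bases before the start, and CCAAT at 67, all on the reverse strand. Hdc holds only the CHR letters, on the reverse strand at 112. Cxcl10† holds the ISRE letters at 213, the NF-kB letters on the reverse strand at 158, the AP-1 letters at 74 and CCAAT at 54. Among all 27025 promoters of the table, 1 per gene and 300 bases each with 50 after the start, 1.2% hold the NF-kB letters, 8.6% the ISRE letters, 7.9% the AP-1 letters, 18.1% the CHR letters and 37.9% CCAAT. A match is a string of letters, not a measured site. Only 66.0% of the genes called higher and 66.9% of those called lower have a promoter in the table, under the 80% required, so shares over the called genes are void and are not given.

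At the lowest ratios the same ranking passed over 2 such entries. Cd300ld5, of the CD300 family of paired receptors, had 597 counts (15.2 CPM) unstimulated and 0 with LPS, at least 47.9-fold lower. Arhgap19, which acts on GTPases in cell division, went from 54 to 0.476 CPM (114-fold lower), and Mamdc2, a matrix proteoglycan gene, from 360.01 to 9.33 CPM (38.6-fold lower). Alox5, the 5-lipoxygenase that starts leukotriene synthesis, went from 37.8 to 0.846 CPM (44.7-fold lower) and Pparg, a lipid-sensing nuclear receptor, from 39.5 to 0.978 CPM (40.3-fold lower). Matk, a kinase that restrains Src kinases, and Cd28, the costimulatory receptor known from T cells, went from 67.3 to 1.51 CPM and from 62.1 to 1.64 CPM. Of 13 T cell markers 3 were above the minimum, with a sum of 8.5 CPM unstimulated and 4.97 with LPS. Which cells gave the Cd28 counts was not tested. Adgre4, an adhesion receptor of macrophages, went from 19.5 to 0.423 CPM, Npas4, an activity-regulated transcription factor, from 12.6 to 0.211 CPM and Nxpe5 from 14.1 to 0.159 CPM. The 10 genes fell in the 4-library test, with adjusted p in edgeR from 0.000304 for Matk to 0.00109 for Alox5.

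**Figure D3:**
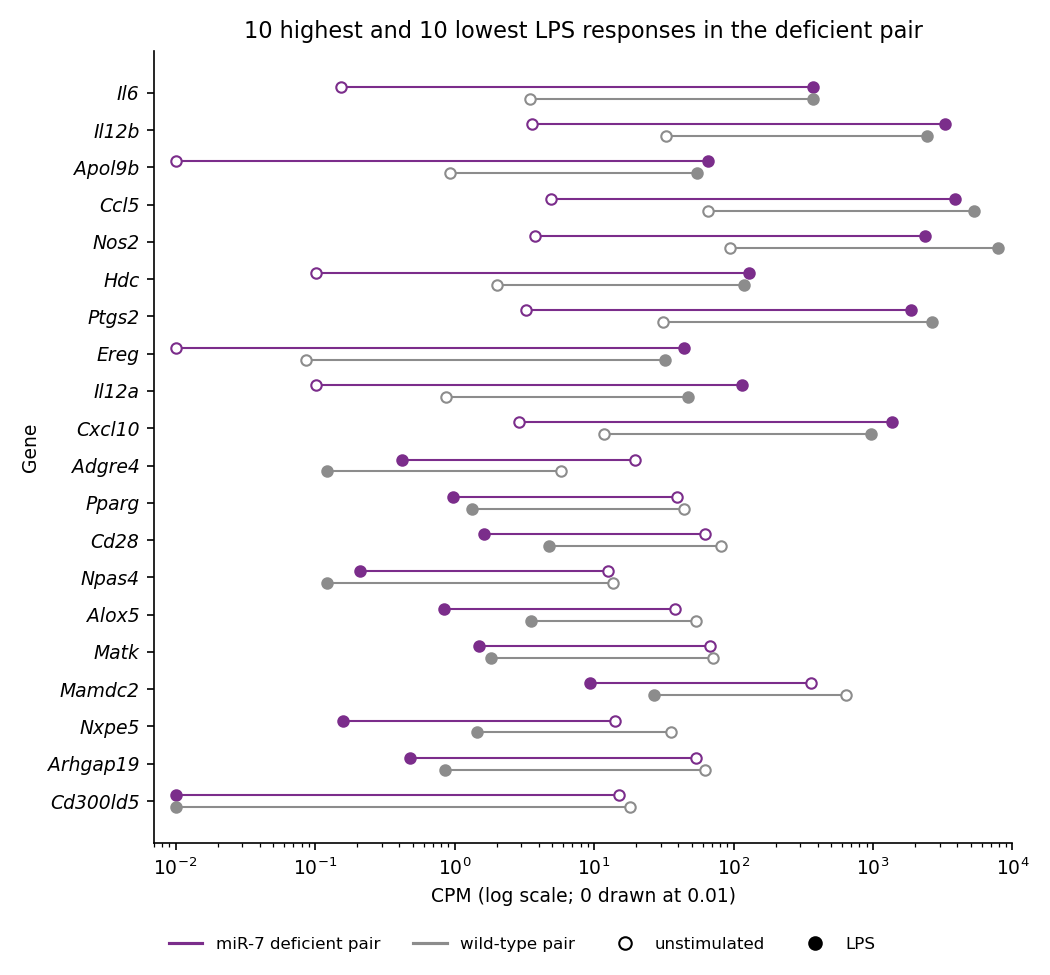
CPM (horizontal axis, log scale, 0 drawn at 0.01) of the 10 genes with the highest and the 10 with the lowest LPS ratio in the deficient pair, provisional names and pseudogenes left out; open circles are unstimulated and filled circles LPS libraries, purple the deficient and grey the wild-type pair, 1 library each. Among unstimulated libraries the purple circle of Nos2 lies at 3.77 and the grey one at 93.8 CPM.

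Gains in CPM, which carry gene length and so do not rank genes by molecules, went to a different set. Fth1, the heavy chain of the iron store ferritin, gained most, from 12386 to 24805 CPM, where the interval of the ratio did not clear 2-fold. Acod1, which makes the antibacterial metabolite itaconate, went from 263 to 11142 CPM (42.4-fold) and Rsad2, the antiviral enzyme viperin, from 36.4 to 7093 CPM (195-fold). Slc7a2†, an arginine transporter, went from 266 to 5715 CPM, and the interleukin 1 genes Il1b† and Il1a† from 13 to 5352 CPM and from 31.5 to 5137 CPM. Rnf213†, an interferon-inducible ubiquitin ligase, went from 251 to 5177 CPM, Prdx1, a peroxidase, from 2688 to 7379 CPM and Ifit2, an antiviral RNA-binding protein, from 31.1 to 4161 CPM. The other of the 10 was Ccl5. The largest losses were of lysosomal and secreted products of macrophages. Lyz2, lysozyme, went from 18559 to 10206 CPM, Gpnmb, a lysosomal membrane glycoprotein, from 20634 to 13190.1 CPM, Ctsd†, cathepsin D, from 12903 to 8013 CPM and Psap, prosaposin, from 17314 to 12784 CPM, all less than 2-fold lower, as was Mmp12†, the macrophage elastase, from 11078 to 7276 CPM. Beyond 2-fold were Lpl, lipoprotein lipase, from 4747 to 1642 CPM, Mfge8, which bridges phagocytes to dying cells, from 5038 to 2327 CPM, Lgals3, galectin 3, from 3129 to 1015 CPM, the annexin Anxa1 from 2254 to 514 CPM and the endocytic receptor Lrp1 from 2854 to 1270.4 CPM. Psap and Mmp12† did not pass the 4-library test, and the other 8 fell.

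**Figure D4:**
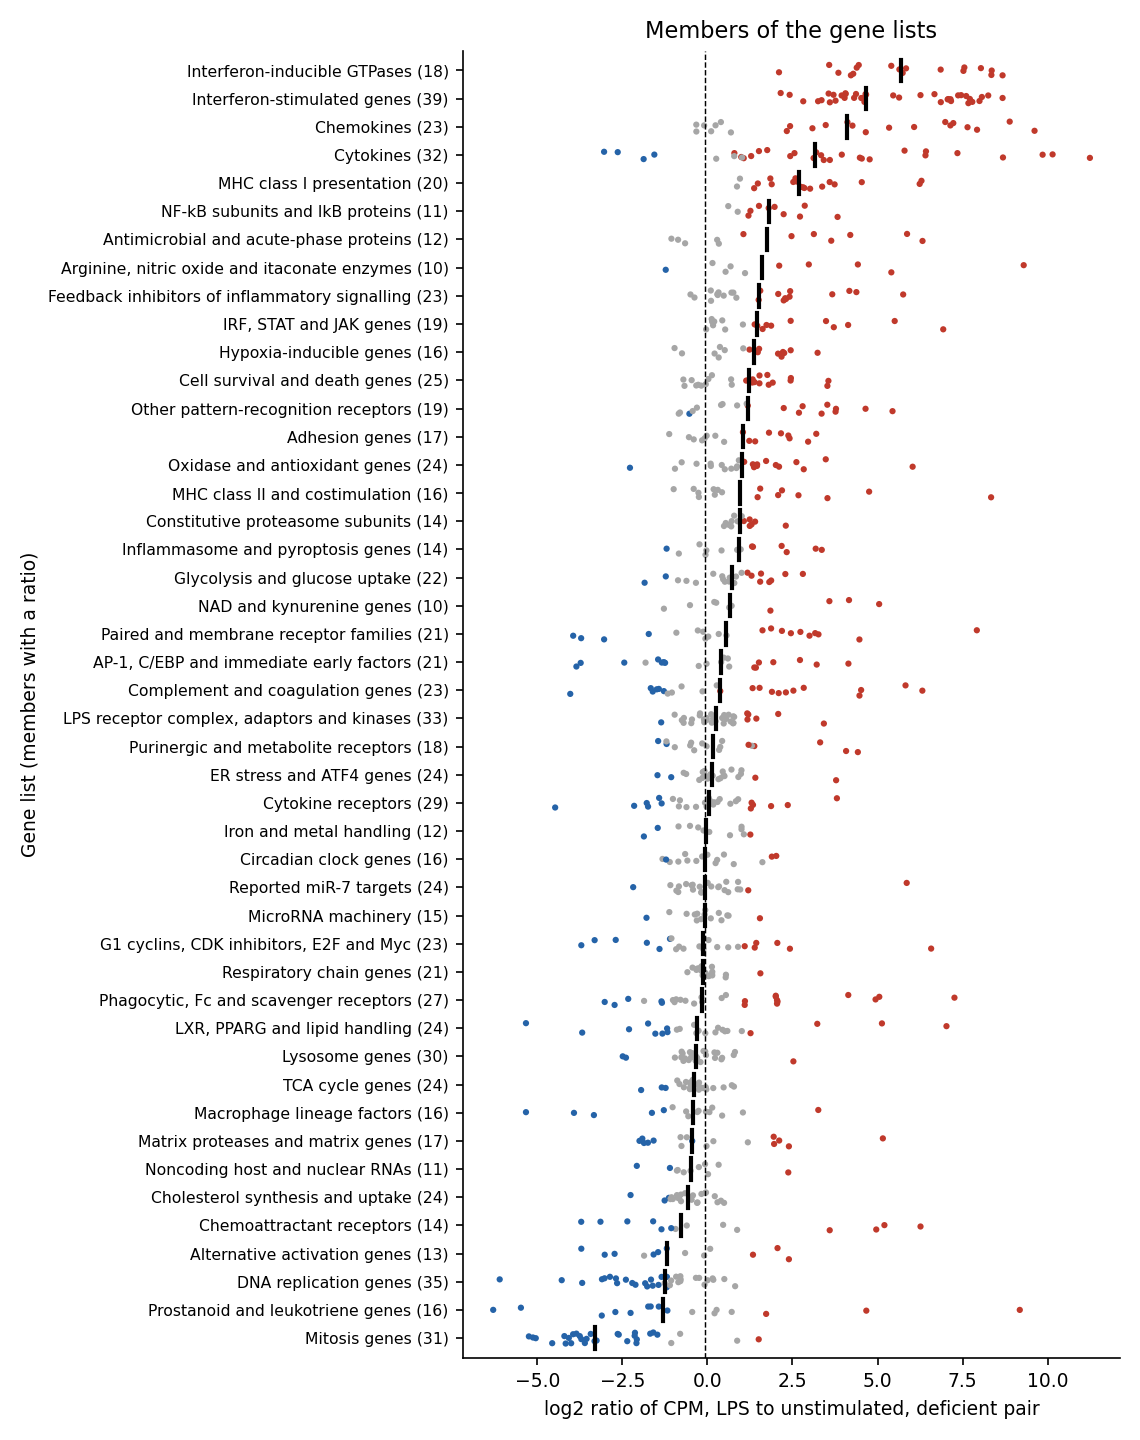
Log2 ratio of CPM, LPS to unstimulated, in the deficient pair (horizontal axis) for members of the gene lists with at least 10 ratios (vertical axis, number in brackets); red points are higher, blue lower and grey neither, black bars are list medians and the dashed line is the median of all genes, -0.06. Interferon-inducible GTPases have the highest median and mitosis genes the lowest.

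The list counts that follow stand beside 13.5% of all genes higher and 12.9% lower. The pathway starts at the receptor. Of 33 genes of the LPS receptor complex, its adaptors and kinases, 6 were higher and 1 lower, with a median log2 ratio of 0.24 against -0.06 for all genes, and 9 rose and 2 fell. Total-count scaling left 2 higher and 2 lower with a median of -0.13. Cd14, which hands LPS to the receptor, went from 89.7 to 962 CPM (log2 3.42). Tlr4, the receptor itself, stood at 11.8 CPM unstimulated and 6.03 with LPS (log2 -0.96, -1.20 to -0.73), and its partner Ly96, which encodes MD-2, at 7.71 and 7.59 CPM. Myd88† went from 52 to 141 CPM, the ubiquitin ligase Traf6 from 42.2 to 97.1 CPM and the decoy kinase Irak3† from 28 to 118 CPM. The TRIF arm gave Ticam1, TRIF, at 27.9 and 47 CPM, which was not called, and the kinases Tbk1 and Ikbke† higher, from 89.6 to 202 CPM and from 120.4 to 272 CPM. Mapk14, the p38 kinase, was lower, from 117 to 45.7 CPM, and did not pass the 4-library test. Of 19 other sensors of microbes 10 were higher and 1 lower, and 12 rose. The highest was Zbp1, a sensor of left-handed nucleic acid, from 7.1 to 308 CPM, and the RNA sensor Ifih1 went from 38.9 to 976 CPM. Nod1, a sensor of cell wall peptides, went from 15.7 to 181 CPM and Tlr2, the receptor for bacterial lipopeptides, from 158 to 1023 CPM. Tlr13, a sensor of bacterial ribosomal RNA, was at 507 CPM unstimulated and 283 with LPS (log2 -0.84). Tlr5, the flagellin receptor, was called lower at 18 and 0 counts, a log2 ratio of -0.53 against the floor, and was not called with counts divided by 4.

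Of 11 genes of NF-kB subunits and IkB inhibitors, 9 were higher and 0 lower, with a median log2 ratio of 1.80, and 10 rose. Nfkbiz, an inducible nuclear IkB protein, had the highest ratio, from 9.13 to 129.5 CPM, and Nfkb2†, the p100 precursor, went from 78.7 to 572 CPM. Nfkbia, the main inhibitor and a known NF-kB target, went from 100.4 to 474 CPM. Rela, the p65 subunit, stood at 73.9 and 137 CPM and was not called in the pair, though it rose in the 4-library test. Of 23 feedback inhibitors 12 were higher and 0 lower. They included Socs1, which blocks JAK kinases, from 3.46 to 187 CPM, Socs3 from 15.4 to 277 CPM, Traf1 from 14.5 to 301 CPM, the ubiquitin editor Tnfaip3 from 66.1 to 841 CPM and Zc3h12a, a nuclease that degrades cytokine messages, from 34.7 to 172 CPM. The phosphatase gene Dusp1† was at 63 and 114 CPM and Zfp36†, which encodes an mRNA-decay factor, at 156 and 192 CPM, neither of them called. AP-1, C/EBP and immediate early factors were split, with 7 higher and 7 lower of 21. Fos and Jun†, the classical AP-1 pair, were lower, from 65.2 to 12 CPM and from 106 to 41.9 CPM, as were Batf3, from 7.63 to 0.529 CPM, and Egr2, from 183 to 67.1 CPM. Batf2† and Fosl1† were higher, from 1.91 to 33.8 CPM and from 1.27 to 11.8 CPM, as was the inflammatory factor Cebpb†, from 29.5 to 84.3 CPM.

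Of 33 cytokine genes 26 were higher and 4 lower, with a median log2 ratio of 3.16, and 25 rose and 4 fell. With counts divided by 4, 20 were higher and 4 lower. Tnf, tumour necrosis factor, went from 42.4 to 984 CPM (23.2-fold), Inhba, a subunit of activin A, from 45.6 to 3878 CPM (85-fold) and the interleukin 1 antagonist Il1rn from 58 to 897 CPM (15.5-fold). The interleukin 27 subunits Il27† and Ebi3† went from 0.967 to 83 CPM and from 23.4 to 79.1 CPM, Tnfsf10, the death ligand TRAIL, from 1.88 to 105 CPM and Il15 from 4.45 to 53.9 CPM. Genes with 0 counts unstimulated included Il10, a brake on inflammation, at 315 counts (8.33 CPM) with LPS, at least 27.3-fold higher, Lif at 6.82 CPM, at least 22.3-fold higher, and Csf3, the granulocyte growth factor, at 2.8 CPM, at least 9.18-fold higher. Ifnb1, interferon beta, had 0 and 23 counts, at least 1.99-fold higher against the floor. Its interval called it higher, but the call was lost with counts divided by 4 and the gene did not pass the 4-library test. The lower ones were growth factors of tissue repair and 1 lymphocyte attractant, Pdgfa† from 23.2 to 2.83 CPM, Pdgfb from 23.2 to 6.32 CPM, Igf1 from 433 to 147 CPM and Il16† from 8.55 to 1.37 CPM. Tgfb1 was at 307 and 368 CPM and Vegfa at 15.6 and 31.6 CPM, neither called.

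Chemokines moved in 1 direction where they were called. Of 23, 16 were higher and 0 lower, with a median log2 ratio of 4.12, and 16 rose. Among neutrophil attractants Cxcl1 went from 0.84 to 168 CPM, Cxcl2 from 15.5 to 1044 CPM, Cxcl3 from 14.1 to 2120.2 CPM and Cxcl5 from 0.331 to 46.7 CPM. Among monocyte attractants Ccl2 went from 20.9 to 362 CPM and Ccl7 from 1.98 to 38.1 CPM. Of the interferon-induced ligands of the receptor CXCR3, Cxcl9 went from 0.204 to 49.5 CPM and Cxcl11† from 0.102 to 13 CPM, beside Cxcl10†. Ccl6 and Ccl9, high without stimulation, were at 2498 and 2694 CPM and at 629.8 and 503 CPM. Chemoattractant receptors went both ways, with 4 higher and 6 lower of 14. Ccr7, which guides cells to lymph nodes, went from 4.07 to 313 CPM and the formyl peptide receptors Fpr1 and Fpr2† from 4.4 to 137 CPM and from 7.81 to 288 CPM. Ccr2, the monocyte receptor for Ccl2, was lower, from 24.2 to 1.85 CPM, as was Cxcr4, from 77.8 to 8.8 CPM. Among 29 cytokine receptors 6 were higher and 6 lower, with a median log2 ratio of 0.04. Under total-count scaling 3 were higher and 8 lower, with a median of -0.33. Il15ra, which presents interleukin 15, had the highest ratio, from 3.77 to 52.7 CPM, and Tnfrsf1b went from 1111 to 4063 CPM. Il18rap had the lowest, from 4.71 to 0.211 CPM. The interferon gamma receptor chain Ifngr1 was lower, from 146 to 32.7 CPM, while Ifngr2 stood at 155 and 277 CPM. Il6st, the shared signal chain of the interleukin 6 family, was lower, from 105 to 31.5 CPM.

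Of 39 tested interferon-stimulated genes 39 were higher, as they also were with counts divided by 4 and under total-count scaling, with a median log2 ratio of 4.67, and 39 rose. Their summed level went from 1143 to 41135 CPM. Ratios ran from 2.15 for Eif2ak2†, the kinase PKR, at 46.2 to 206 CPM, to 8.68 for Ifit1bl1, at 3.51 to 1437 CPM. Isg15, a ubiquitin-like modifier, went from 5.14 to 1379 CPM (268-fold), Ifit1 from 14.6 to 2086 CPM (143-fold), Cmpk2, a mitochondrial nucleotide kinase, from 16.2 to 3410.2 CPM (210.1-fold) and Mx1, an antiviral GTPase, from 14.9 to 1733 CPM (116-fold). The 5 tested oligoadenylate synthetases that share no exonic bases, Oas1a, Oas1g, Oas2, Oas3 and Oasl2, had log2 ratios of 3.71, 4.37, 3.56, 3.95 and 4.06. All 18 interferon-inducible GTPases, which attack the vacuoles of intracellular microbes, were higher, with a median of 5.69, and their sum went from 339 to 12925 CPM. Gbp5 went from 7.38 to 1941 CPM and Iigp1 from 1.12 to 367 CPM, and Gbp8† had the lowest ratio, from 7.38 to 31.7 CPM. Many members are near-identical copies in clusters, such as Tgtp1† and Tgtp2, whose counts could be split between copies.

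The factors that carry the interferon signal were higher in part. Of 19 IRF, STAT and JAK genes 11 were higher and 0 lower, with a median of 1.47. Irf7†, which amplifies interferon production, went from 9.44 to 1152 CPM (122-fold), Stat2 from 24.8 to 436 CPM and Irf9† from 29.7 to 91.6 CPM. Stat4†, a signal transducer of interleukin 12, went from 0.356 to 16.2 CPM and Jak2 from 60.2 to 675 CPM. Irf3†, which TRIF signalling activates as a protein, was at 13.4 and 14.6 CPM, and the interferon receptor chain Ifnar1 at 139 and 159 CPM.

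Enzymes that make effector molecules were next. Of 10 tested genes for arginine, nitric oxide and itaconate, 5 were higher and 1 lower. Beside Nos2, Ass1, which rebuilds arginine, went from 312 to 1345 CPM and Gch1, which makes the cofactor of nitric oxide synthase, from 42 to 331 CPM. Sat1, which breaks down polyamines, was lower, from 208 to 88.8 CPM. Arg1, the competing arginase, had 0 and 4 counts, at most 1 step. In the prostanoid and leukotriene list 3 of 16 were higher and 9 lower, with a median of -1.30. Ptgs2 and Ptges, the inducible steps to prostaglandin E2, and Pla2g4a, which frees arachidonic acid, were higher, the last 2 from 9.62 to 245 CPM and from 28.8 to 95.2 CPM. The prostaglandin E synthase genes Ptges2 and Ptges3, also in the list, were not called higher. Ptgs1†, the constitutive cyclooxygenase, was lower, from 72.6 to 8.43 CPM, as were the synthases of other prostanoids, Hpgds from 61.6 to 9.44 CPM and Tbxas1† from 170.4 to 53.6 CPM. Each tested gene of the leukotriene branch was lower, with Alox5 joined by Alox5ap† from 231 to 102 CPM, Lta4h from 97.2 to 36.1 CPM and Ltc4s† from 4.94 to 1.03 CPM. Ptger3, a prostaglandin E2 receptor, had the lowest ratio of the list, from 8.32 to 0.106 CPM.

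Among 24 oxidase and antioxidant genes 12 were higher and 1 lower, or 9 and 3 under total-count scaling, and 15 rose. Sod2, mitochondrial superoxide dismutase, went from 138 to 1536 CPM, Sod3, the secreted form, from 0.229 to 15 CPM, Hmox1, heme oxygenase, from 356 to 2535 CPM and Slc7a11, the cystine importer, from 351 to 1415 CPM. Gpx1 was lower, from 366 to 75.6 CPM, and the oxidase subunit Cybb was at 2683 and 4840.4 CPM (log2 0.85), not called. Of 12 antimicrobial and acute-phase genes 7 were higher. They included Lcn2, which binds bacterial iron carriers, from 0.84 to 67.2 CPM, and Saa3 from 12.1 to 708 CPM. Of 14 inflammasome genes 6 were higher and 1 lower, or 4 and 2 under total-count scaling. Casp4, which encodes the cytosolic LPS sensor caspase-11, had the highest ratio, from 16.2 to 167 CPM, Casp1 went from 56.5 to 284 CPM, and the adaptor Pycard† was at 67.6 and 37.8 CPM.

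Antigen presentation has a class I arm, which shows peptides from inside the cell, and a class II arm for engulfed material. Of 20 class I genes 18 were higher and 0 lower, with a median of 2.68, and 20 rose. H2-Q7 and H2-Q6 had the highest ratios, from 7.66 to 600.2 CPM and from 9.62 to 726 CPM, in a family of close copies. The peptide transporter Tap1† went from 27.9 to 647 CPM, its regulator Nlrc5† from 28.6 to 383 CPM and the immunoproteasome subunit Psmb9† from 19.5 to 129.9 CPM. B2m and H2-D1 were at 3173 and 6156 CPM and at 3087 and 5639.7 CPM, short of 2-fold. Of 14 constitutive proteasome subunits 6 were higher, 11 rose, and 1 was higher under total-count scaling. Psma5† had the highest ratio, from 38.7 to 191 CPM. In the class II and costimulation list 8 of 16 were higher and 0 lower. The higher ones were mainly costimulatory, among them Cd40 from 2.32 to 749.6 CPM (324-fold), Cd86 from 18.1 to 209 CPM and Icosl from 3.69 to 99.5 CPM. The class II chains H2-Aa, H2-Ab1 and H2-Eb1 stood at 2409 and 2004, at 1971 and 2434 and at 1483 and 1121 CPM, none of them called.

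LPS-activated macrophages are known to lean on glycolysis. Of 22 genes of glycolysis and glucose uptake 8 were higher and 2 lower, with a median of 0.72, and 13 rose. Under total-count scaling 6 were higher and 3 lower, with a median of 0.36. Aldoc, an aldolase, had the lowest ratio (log2 -1.85). Slc2a6, a hexose transporter, had the highest ratio, from 139.9 to 978 CPM, the first-step enzyme Hk2 went from 73.4 to 269 CPM and Pfkfb3, which makes an activator of glycolysis, from 35.5 to 173 CPM. Of the lower pathway, Ldha was at 471 and 741 CPM and Eno1 at 510.2 and 793 CPM, neither called. Of 16 hypoxia-inducible genes 9 were higher and 0 lower, or 7 and 2 under total-count scaling, with a median of 1.36. Hif1a†, the oxygen-regulated factor, went from 116 to 333 CPM and its target Egln3 from 0.611 to 5.76 CPM. In the TCA cycle 0 of 24 were higher and 3 lower, beside 13.5% and 12.9% of all genes. The lower ones were Idh1 from 264 to 68.4 CPM, Idh2 from 41 to 16.2 CPM and Fh1 from 31.3 to 13.4 CPM. Of 21 respiratory chain genes 1 was higher, Cycs, cytochrome c, from 57.4 to 169 CPM, and 0 were lower. Of 10 genes of NAD and kynurenine metabolism 4 were higher, among them the NAD-consuming enzyme Cd38 from 12.2 to 402 CPM and Nampt, which rebuilds NAD, from 347 to 1254 CPM.

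In cholesterol synthesis 0 of 24 genes were higher and 3 lower, beside 13.5% and 12.9% of all genes, with a median of -0.58, and 11 fell. Total-count scaling gave 11 lower. Dhcr7, which makes cholesterol in its last step, had the lowest ratio, from 82.9 to 17.3 CPM. Lipid handling genes were 4 higher and 8 lower of 24. Ch25h†, which makes the antiviral oxysterol 25-hydroxycholesterol, went from 1.02 to 133 CPM (130.4-fold) and Acsl1†, which activates fatty acids, from 89 to 3118 CPM. The fatty acid binding proteins Fabp4 and Fabp5 were lower, from 111 to 8.62 CPM and from 1746 to 354 CPM, as was Apoe, from 161 to 48 CPM. Of 30 lysosome genes 1 was higher, the protease Ctsc from 256 to 1478 CPM, and 2 were lower, the proton pump subunit Atp6v0d2 from 1177 to 209 CPM and Tfeb, a regulator of lysosome genes, from 68 to 12.9 CPM. Total-count scaling gave 8 lower. In iron handling Tfrc, the transferrin receptor, was lower, from 127 to 34.8 CPM, and Slc11a2† higher, from 86 to 206 CPM. Of 24 ER stress and ATF4 genes 2 were higher and 2 lower, beside 13.5% and 12.9% of all genes. Chac1 had the highest ratio, from 0.102 to 1.4 CPM, and the chaperone Hspa5 was at 521 and 491 CPM.

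Surface receptors went both ways. Of 27 phagocytic, Fc and scavenger receptors 11 were higher and 5 lower, and 9 and 10 under total-count scaling. Marco, a scavenger receptor for bacteria, went from 1.58 to 242 CPM, Clec4e, which binds mycobacterial glycolipid, from 63.6 to 2110.5 CPM and Fcgr1, the high-affinity receptor for antibody, from 23.7 to 418 CPM. Mrc1, the mannose receptor, was lower, from 404 to 49.8 CPM, as were Clec7a, the beta-glucan receptor, from 2497 to 979 CPM, and Trem2 from 469.8 to 186 CPM. In paired and membrane receptor families 10 of 21 were higher and 4 lower. The 4 lower ones were all CD300 genes, Cd300lb from 262 to 17 CPM, Cd300ld from 214 to 16.4 CPM, Cd300a from 154 to 18.7 CPM and Cd300c2 from 333 to 101 CPM, while Cd300e was higher, from 0.611 to 5.87 CPM, without passing the 4-library test, and Cd300lf was not called, at 98.4 and 145 CPM. Of the MS4A family Ms4a4c† went from 3.15 to 764 CPM and Ms4a6d from 154 to 1234 CPM. Adhesion genes gave 9 higher and 0 lower of 17, or 5 and 1 under total-count scaling. Vcam1† had the highest ratio, from 4.48 to 41.1 CPM, and Icam1† went from 175 to 909.6 CPM. Of 18 purinergic and metabolite receptors 5 were higher and 2 lower, with the niacin receptor Hcar2 highest, from 5.34 to 115 CPM, and the adenosine receptor Adora2a from 8.9 to 150.2 CPM.

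Complement and coagulation genes were 12 higher and 6 lower of 23, and 9 rose and 7 fell. The 3 chains of C1q were lower, C1qa from 66 to 27.2 CPM, C1qb from 337 to 106 CPM and C1qc from 125 to 44.6 CPM. The alternative pathway gene Cfb† went from 35.6 to 2842 CPM and C3 from 384 to 1112 CPM. Of 17 matrix genes 5 were higher and 6 lower, with Mmp25 highest, from 1.83 to 65.4 CPM, Mmp14 higher, from 311 to 1201 CPM, and Mmp8 and Mmp19† lower, from 759.6 to 202 CPM and from 327 to 82 CPM.

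Among 16 macrophage lineage factors 1 was higher and 5 were lower. Id3, an inhibitor of helix-loop-helix factors, went from 26.2 to 2.59 CPM and Cebpa† from 202 to 83.1 CPM, while Spi1, which encodes PU.1, stood at 341 and 355 CPM. The higher one was Spic, a heme-responsive factor, from 2.01 to 19.2 CPM. Of 13 tested genes of alternative activation 3 were higher and 6 lower, with a median of -1.19. The lower ones included Myc from 16.9 to 1.3 CPM and Clec10a from 3.15 to 0.476 CPM, and Chil3 was not called, at 726 and 461 CPM. Tgm2, the most abundant member, had the highest ratio (log2 2.395). The summed level of the list went from 1803 to 2056 CPM.

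Bone marrow-derived macrophages divide in culture before stimulation. Of 31 mitosis genes 27 were lower and 1 higher, with a median log2 ratio of -3.32, and 26 fell and 2 rose. With counts divided by 4, 25 were lower. Top2a†, which untangles chromosomes, went from 34.7 to 2.25 CPM. Cenpf, a kinetochore protein, had the lowest ratio, from 4.02 to 0.106 CPM, Birc5, survivin, went from 5.24 to 0.159 CPM, Bub1b, a checkpoint kinase, from 10 to 0.423 CPM and the cyclin Ccnb1 from 9.34 to 1.53 CPM. The higher one was Mki67, the proliferation marker Ki-67, from 69.7 to 198 CPM, and Tpx2, a spindle factor, stood at 18.7 and 34.3 CPM, not called in the pair. With Mki67 included, the summed level of the list went from 323 to 269 CPM. Of 35 replication genes 19 were lower and 0 higher, with a median of -1.26, and 23 fell. Clspn, of the replication checkpoint, had the lowest ratio, from 9.11 to 0.132 CPM, Rrm2, which makes DNA precursors, went from 20.1 to 1.03 CPM and the helicase subunit Mcm2 from 20.4 to 4.7 CPM. Pcna, the replication clamp, was at 255 and 141 CPM, and Gins2† and Mcm6 were at 23.4 and 22 and at 33.7 and 28.5 CPM.

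Promoter letters give a description of these lists that the ratios did not use. Of 27 mitosis genes with a promoter in the RefSeq table, 22 hold the CHR letters TTTGAA (81.5%, exact 95% interval 61.9% to 93.7%) and 22 hold CCAAT (81.5%), against 18.1% and 37.9% of all 27025 promoters. Of 29 replication genes 6 hold the E2F letters TTTCCCGC (20.7%, 8.0% to 39.7%) and 19 hold CCAAT (65.5%), against 1.1% and 37.9%. CCAAT was as frequent in the clock list, in 12 of 14 promoters (85.7%), and in the ER stress list, in 17 of 21 (81.0%). The CHR letters were in 6 of 11 antimicrobial genes (54.5%) and 9 of 22 survival and death genes (40.9%). Of 17 class I genes, 5 hold the ISRE letters (29.4%, 10.3% to 56.0%) against 8.6%, and 7 of 17 paired receptor genes hold them (41.2%). Matches in a window of 150 bases before to 50 after the start numbered 22 for CHR in mitosis genes and 5 for E2F in replication genes.

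Of 23 G1 cyclins, CDK inhibitors, E2F and Myc genes 6 were higher and 6 lower, with a median log2 ratio of -0.12, against 3 and 8 with a median of -0.48 under total-count scaling. Ccnd2†, a D-type cyclin, went from 6.39 to 609 CPM (95.4-fold) and the inhibitor Cdkn1a†, p21, from 118 to 636 CPM, while Ccnd1† was lower, from 26.5 to 9.96 CPM, and so were E2f2, from 14.5 to 4.23 CPM, and Cdkn2c, from 6.84 to 0.687 CPM. Of 25 survival and death genes 14 were higher and 0 lower, or 9 and 0 under total-count scaling. Cflar, which blocks caspase-8, went from 87.7 to 1032 CPM, Mlkl, the executor of necroptosis, from 20.9 to 241 CPM and the BCL2 relative Bcl2a1d, of a family of close copies, from 57.7 to 316 CPM. Of 16 clock genes 2 were higher, Per2 from 4.71 to 19.1 CPM and Nfil3 from 8.09 to 30.1 CPM, and 1 was lower, Rora† from 30.8 to 13.3 CPM, beside 13.5% and 12.9% of all genes. With counts divided by 4 Rora was not called, and under total-count scaling 4 clock genes were lower.

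Genes that miR-7 lowers were the stated aim of the counting. Among 24 tested genes reported elsewhere as miR-7 targets, 2 were higher and 1 lower with LPS in the deficient pair, with a median log2 ratio of -0.08 against -0.06 for all genes, and 5 rose and 5 fell. The lower one was Igf1r, the receptor for IGF1, from 12.7 to 2.8 CPM. Egfr, the most studied of these targets, was at 4.05 and 4.07 CPM and Klf4 at 34.5 and 22.4 CPM, neither called. Of 15 genes of the microRNA machinery 1 was higher, Ago3 from 34.2 to 99.7 CPM, and 1 lower, Ago4 from 28.1 to 8.11 CPM, under those shares of all genes called. Dicer1, which cuts precursors, was at 59.3 and 45.9 CPM. Of 11 noncoding host and nuclear RNAs, 1 was higher, Mir155hg†, the host of the LPS-responsive miR-155, at 10 and 50 counts, a call lost with counts divided by 4. The nuclear RNA Neat1† was lower, from 341 to 159 CPM, as was Dleu2†, from 18.2 to 4.31 CPM.

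The last comparison set the deficient pair beside the wild-type pair. Of the 2125 genes higher in the deficient pair, 1571 were higher in the wild-type pair, 532 neither and 22 lower, and of the 2027 lower, 1241 were lower, 763 neither and 23 higher. The log2 LPS effect of the deficient pair lay above that of the wild-type pair by an interval wholly beyond 2-fold in 442 genes (2.80%) and below it in 698 (4.43%), with 0.5 counts added. With counts divided by 4 these came to 116 and 268. There is 1 library in each cell of this design, so the difference has no replicate and no test.

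For several of the genes with the highest ratios, the pairs differed more in the unstimulated than in the LPS level. Il6 had 0.153 CPM in unstimulated deficient and 3.49 in unstimulated wild-type cells but 370.2 and 369.7 CPM with LPS, so the log2 ratios were 11.24 and 6.73. Nos2 had 3.77 and 93.8 CPM unstimulated and 2369 and 7897 CPM with LPS, so that its deficient ratio was the larger (9.30 against 6.40) while its deficient LPS level was the lower. Il1b† had 13 and 73.7 CPM unstimulated and 5352 and 5583 with LPS. Among 1769 genes with at least 100 CPM with LPS in both genotypes, the unstimulated level was under 1% of the LPS level for 42 genes in the deficient pair and for 5 in the wild-type pair, and under 2% for 61 and 51. The lowest such share was 0.0412% in the deficient pair (Il6) and 0.834% in the wild-type pair (Ifit1bl1). The unstimulated deficient level of Il6, 0.153 CPM, lies under 0.305 CPM, the floor taken for 0 counts. Its ratio and share in that pair are limited by depth. Whether RNA or reads of the wild-type LPS library reached the unstimulated wild-type library was not tested. The wild-type ratios of genes high with LPS, and the 442 and 698 differences from the deficient pair, carry that limit.

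Hypoxia-inducible genes had smaller ratios in the deficient pair. The median log2 ratio of the 16 genes was 1.36 in the deficient and 2.81 in the wild-type pair, beside 0.72 and 1.51 for glycolysis and 4.67 and 4.64 for interferon-stimulated genes. A lower deficient median was not particular to this list. Matrix genes had -0.45 and 1.185, arginine, nitric oxide and itaconate genes 1.61 and 2.94, and other sensors of microbes 1.19 and 2.47. Some lists went the other way, such as IRF, STAT and JAK genes with 1.47 and 0.675. The summed level of the hypoxia-inducible genes was 695 and 698 CPM unstimulated and 1165 and 3595 CPM with LPS. The unstimulated libraries were thus close and the LPS libraries differed. Bnip3†, a mitophagy gene, reached 37.8 CPM with LPS in deficient and 284 CPM in wild-type cells from 13.6 and 13.3 CPM, and Egln3 reached 5.76 and 151 CPM from 0.611 and 2.46 CPM. Ero1l, which oxidises proteins in the ER, reached 137 and 1306 CPM from 65.9 and 57.2 CPM. Adm, adrenomedullin, had 0 counts unstimulated in the deficient pair and reached 1.67 CPM, against 0.259 and 33.2 CPM in the wild-type pair.

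Tlr4 was at 14.6 CPM unstimulated and 44.6 with LPS in the wild-type pair (log2 1.61), against 11.8 and 6.03 CPM in the deficient pair (log2 -0.96), and its LPS term did not pass the 4-library test (edgeR, adjusted p 0.72). By the interval bound of the difference, the 5 genes farthest above wild type were Kctd12†, Hist2h2aa1†, Rnd2†, Sla2† and Lrrc8d†. All 5 share exonic bases with another gene, so the counts could be assigned to either. Kctd12†, a subunit of GABA-B receptors, had 868 and 219 CPM in the deficient pair and 821 and 0 CPM in the wild-type pair, so that it was lower with LPS in both. The 5 farthest below were Slfn5os†, Mfap3, Tnc†, Plod2† and Ak4. Ak4, a mitochondrial adenylate kinase, reached 16.9 CPM with LPS in deficient and 73.8 CPM in wild-type cells from 4.3 and 1.06 CPM, and Mfap3 went from 52.6 to 15.9 CPM in deficient and from 9.94 to 90.8 CPM in wild-type cells.

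**Figure D5:**
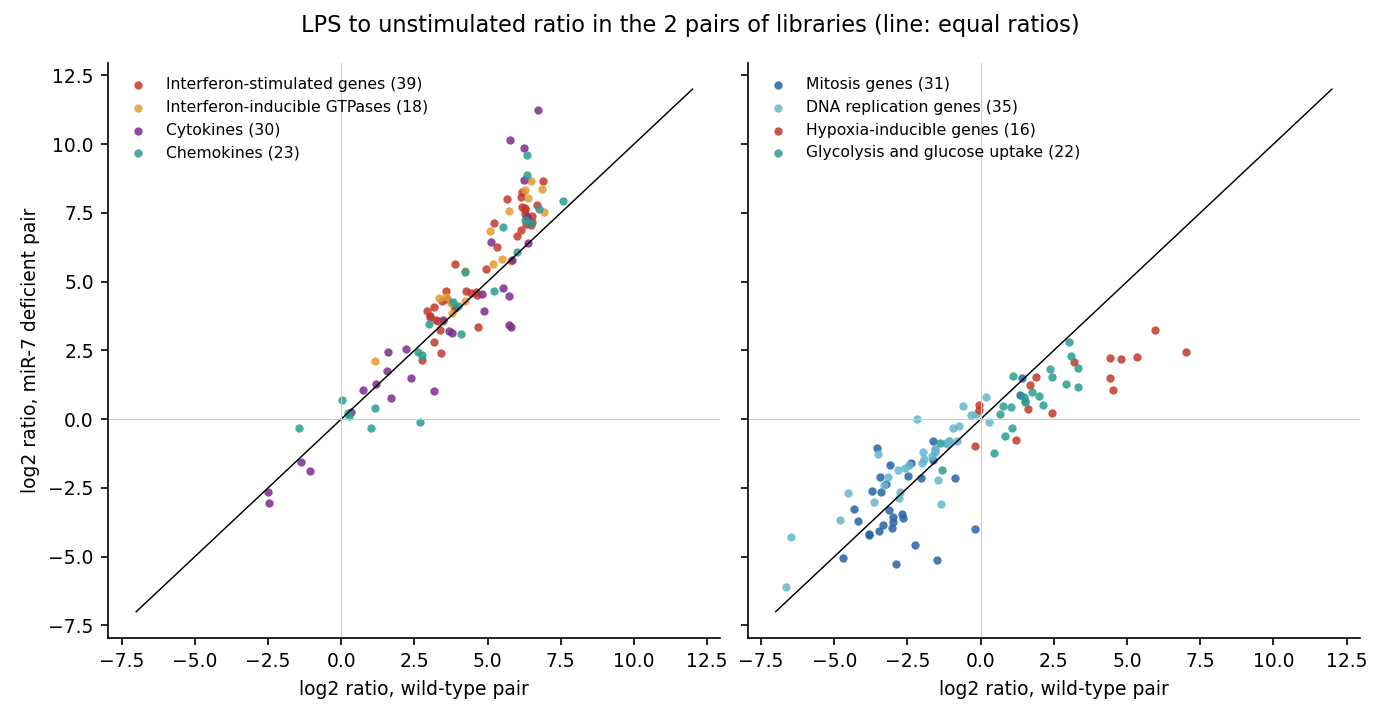
Log2 ratio, LPS to unstimulated, in the deficient pair (vertical axis) against the wild-type pair (horizontal axis) for members of 8 gene lists, numbers in brackets, 1 library a condition; the line marks equal ratios. Il6 stands highest, at 11.24 in the deficient and 6.73 in the wild-type pair, and most hypoxia-inducible genes lie below the line, with list medians of 1.36 and 2.81.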

How the data were processed

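Poly(A)-enriched RNA of 4 macrophage libraries was sequenced on a HiSeq 2000, and the deposited values are read counts per gene, per the series' design text. Casava 1.8.2, Cutadapt and TopHat 2.0.13 with Bowtie2 were used, with exon annotation through Partek, and the submitters' processing notes name HTSeq and the mm8 genome build. For the strand setting and for reads with several hits, the choice is not given in the sources used here.

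From the counts, TMM factors and the quasi-likelihood test of edgeR 4.0.16 (R 4.3.3) were used on genes with 10 or more counts in either deficient library. Ratios and intervals were computed in Python 3.11.15 with scipy 1.17.1, and DESeq2 1.42.0 served as an alternative. The procedures were tested on simulated data. For the 4-library test these data held no steps in low counts and no difference between the genotypes' LPS effects. How the test behaves with either was not examined. A test on the reads of 2 libraries compares those libraries, not the conditions. Exon overlap was read from gene models of GRCm38, which the gene IDs match. Oip5os1 was matched through its RefSeq synonym.

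The gene lists and the members were chosen with earlier results of these data known. Genes named are the 10 with the highest and lowest ratios, the 10 with the largest gain and loss in CPM (provisional names and pseudogenes left out), the 5 farthest above and below wild type, the highest, lowest and most abundant member of each list, a few fixed genes, and others chosen after their values were seen. Alternatives were other scalings, count minimums and fold limits, models of LPS alone, DESeq2, leaving out each library, and leaving out genes with shared exons. Dividing counts by 4 was added after the data were seen. A few genes are not reported here.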

Additional observations from a re-analysis of the deposited data

Results flagged for a closer look

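In 22 genes LPS went with a higher level in the deficient pair and a lower level in the wild-type pair, and in 23 genes with a lower level in the deficient and a higher level in the wild-type pair. With 1 library a condition the difference between the pairs was not tested for any of them. With counts divided by 4 the deficient pair's call stayed for 8 of the 22 and 5 of the 23, and 32 of the 45 had 0 counts in at least 1 of the 4 libraries. Against the floor, some wild-type log2 ratios called lower were above 0, such as 0.073 for Cmtm2a†, 0.266 for G630030J09Rik† and 0.166 for Jpx†. Rnd2†, a small GTPase gene, had a log2 ratio of 3.53 in the deficient and -5.41 in the wild-type pair. Lrrc8d†, a subunit of volume-regulated anion channels, had 3.90 and -3.25. Mfap3, a microfibril-associated protein gene, had -1.72 and 3.19. Mmp9, a gelatinase gene, had -1.75 and 2.93 with at most 227 counts in a library, and its deficient call was lost with counts divided by 4. Timp3†, a protease inhibitor gene, had 17 and 0 counts in the deficient pair, a log2 ratio of -0.45 against the floor, which is short of 2-fold, and its call was lost with counts divided by 4. In the wild-type pair it had 4 and 24 counts, a log2 ratio of 3.07.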

How the results depend on the processing

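Each count or value below changes 1 choice, except that a fit with a library left out also drops the genotype term. The DESeq2 test also brings its own scaling and gave an adjusted p for 15148 of 15760 genes. With edgeR's own count filter, filterByExpr, the TMM factors were computed anew. In the deficient pair, 3202 genes were lower beyond 1.5-fold, 1043 were higher and 720 lower beyond 4-fold, 1344 were higher and 1279 lower without genes that share exonic bases, and 1155 were lower with counts divided by 4, a setting chosen after the data were seen. The other settings tried for the pair stayed within 1.5 times the 2125 and 2027 genes. In the 4-library test 3704 genes fell under total-count scaling. A model of LPS alone gave 2060 and 1806 with all 4 libraries. With 1 library left out of it between 906 and 1633 rose and between 518 and 1365 fell, where the lone library of a condition is assumed to vary like the others. Of the genes whose LPS effect differed between the genotypes, 122 lay above and 196 below beyond 4-fold, and 116 and 268 with counts divided by 4. Among the named genes, 1370 LPS terms over all settings stayed on the same side of the threshold, 34 came to pass it and 134 no longer passed it. A sign change of a term that passed neither in the main fit nor in the other setting would be counted among the 1370. Of the terms that passed in at least 1 of them, 1 changed sign. It was that of Itgb7, an integrin, at -1.15 in the model of LPS alone, and from -2.31 without the wild-type LPS library to 0.032 on the log2 scale without the wild-type unstimulated library (edgeR, adjusted p 0.984), the lowest and highest values with 1 library left out. Of the list medians 135 kept their sign and 6 changed it. No paired analysis was possible because each group has 1 library and the labels give no shared replicate numbers. For genes with 12 or fewer counts in a library of the pair, differences were limited by depth.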

Other observations

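For several of the genes with opposite ratios, the level in the deficient LPS library was near that in the unstimulated wild-type library, and the level in the unstimulated deficient library near that in the wild-type LPS library. Lrrc8d† had 415 and 5958 counts, unstimulated and with LPS, in the deficient pair and 7210 and 542 in the wild-type pair. Nek7†, a kinase of the NLRP3 inflammasome, had 1938 and 6561 against 6757 and 1923. Osgin1, an oxidative stress gene, had 162 and 698 against 628 and 147, and the predicted gene Gm20716† had 0 and 415 against 404 and 0. These genes were picked for their opposite ratios after their values were seen, and the cause was not tested.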
